A study of Mus musculus with 2 samples.

Results

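Interferons are secreted proteins that put cells into an antiviral state. Type I interferons signal through receptor-bound JAK kinases to STAT proteins, and STAT2 joins IRF9 in the ISGF3 complex on interferon-stimulated response elements (ISREs) in DNA. Interferon regulatory factors (IRFs) switch on interferon genes and many of the same targets, and keratinocytes, which form a barrier to microbes, can respond to type I, II and III interferons. The 8 genes described here were chosen by name from this pathway, of 50559 genes listed in the count files, and all 8 were found. They comprise the ISGF3 subunits Stat2 and Irf9, the regulators Irf1 and Irf7, the RNA sensor Ifih1, and the effectors Isg15, Ifit1 and Ifit3.

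The study measured steady-state RNA of live GFP+ cells sorted from the dorsal skin of mice on postnatal day 21, when hair follicles rest (telogen), to set it beside nascent RNA. The mice carried floxed Polr2b with GFP (Polr2b encodes a subunit of RNA polymerase II) and K14-Cre, a recombinase under the keratin 14 promoter of basal epidermis and its follicular lineages. The series has 1 group of 2 replicate libraries, which hold 36692204 and 33489967 counts. Every sample had the same genotype and no interferon treatment, infection or control group is named in the labels, so the comparisons are between genes and between the libraries. Whether a library came from 1 animal or a pool was not given in the sources used here.

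The fraction carried the keratinocyte markers and also those of other skin cells. All 10 basal keratinocyte markers passed 10 CPM (the count scaled to a common library total) in both libraries, with summed levels of 12904 and 18684 CPM in replicates 1 and 2. Of 11 macrophage markers 10 did so too, with sums of 8496 and 9312 CPM, and all 10 fibroblast markers, with sums of 13262 and 6588 CPM. Xist, the RNA of the inactive X chromosome, had 112587 counts in the first library and 11 in the second, the Y-linked Uty had 0 and 2394, and the libraries thus also differ in sex-linked RNA. The counts do not assign the RNA of an interferon response gene to a cell type, and fewer cells of a type cannot be told apart from less RNA per cell.

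Matches to interferon-responsive DNA elements were searched first, because STAT and IRF proteins can bind such elements. RefSeq start-site windows of build GRCm38.p6, from 250 bases before to 50 bases after each annotated start, were matched by symbol for 8 of 8 genes (10 windows). The ISRE core was searched as GAAA, any 2 bases and GAAA again, and the core of the gamma-activated site (GAS), an element of the interferon gamma response, as TTCNNNGAA, on both strands. Overlapping ISRE cores in 1 stretch were counted separately. The following stretches hold the matches, shown 5′ to 3′ on the strand of the gene with the matches in capitals, and runs of TTTC are the core read on the opposite strand.
Isg15: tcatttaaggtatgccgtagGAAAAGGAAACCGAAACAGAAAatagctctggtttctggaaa
Ifit1: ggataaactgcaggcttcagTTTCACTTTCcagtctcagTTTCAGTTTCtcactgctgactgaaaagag
Ifit3: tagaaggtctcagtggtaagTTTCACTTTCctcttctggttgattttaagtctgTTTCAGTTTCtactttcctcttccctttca
Stat2: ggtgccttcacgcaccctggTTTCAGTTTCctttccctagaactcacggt
Ifih1: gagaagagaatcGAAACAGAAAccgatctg
Irf1: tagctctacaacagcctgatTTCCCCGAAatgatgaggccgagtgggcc

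These stretches lie at chr4:156200855-156200916 (Isg15, minus strand), chr19:34640765-34640833 (Ifit1, plus strand), chr19:34583353-34583436 (Ifit3, plus strand), chr10:128270256-128270305 (Stat2, plus strand), chr2:62646206-62646235 (Ifih1, minus strand) and chr11:53769904-53769952 (Irf1, plus strand). Isg15 held 3 overlapping ISRE cores between 78 and 57 bases before its start. Ifit1 and Ifit3 held 2 each, those of Ifit1 between 104 and 76 bases and those of Ifit3 between 156 and 113 bases before the start. In both Ifit genes the matched letters were the same, TTTCACTTTC followed by TTTCAGTTTC. Stat2 held 1 core, between 222 and 213 bases before the start, and Ifih1 held 1 at 33 to 42 bases after its start, inside the transcribed sequence.

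The ISRE core was thus found for 5 of 8 genes, beside 3.99% of the 27025 genes with a window, and for 23 of 49 other interferon-stimulated genes with a window. Irf7 and both windows of Irf9 held neither core in these letters, which says nothing of other spellings or positions. The GAS core was found for 1 of the 8 genes, Irf1, at 90 to 82 bases before the first of its 2 starts, beside 9.55% of all genes. A match is a description of the letters and not a measured binding site, since binding was not measured in these libraries.

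**Figure D1:**
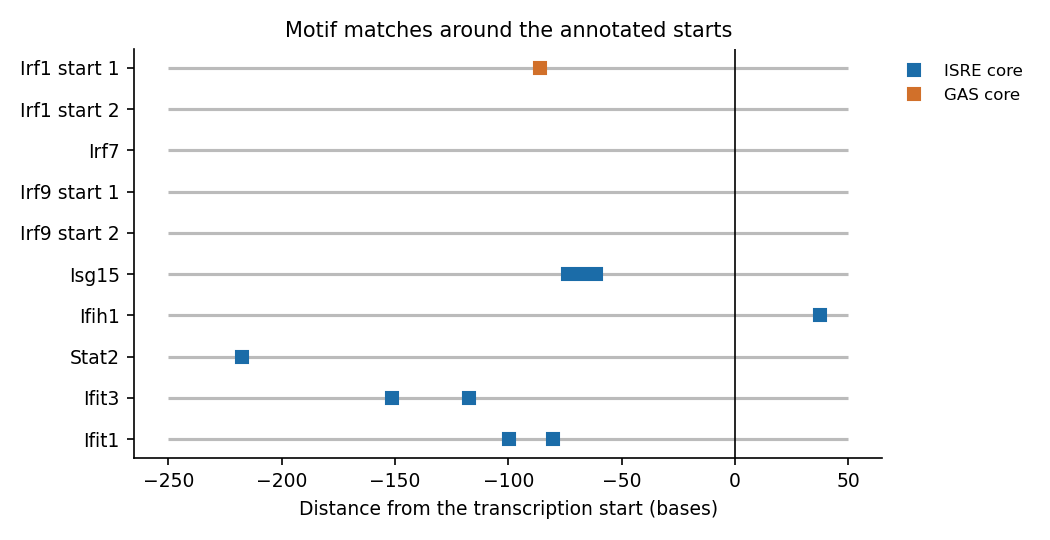
Positions of ISRE core and GAS core matches (squares, at the middle of each match) along the RefSeq windows of the 8 genes, from 250 bases before to 50 bases after the annotated start at 0; genes with 2 starts have 2 lines. The matches of Isg15, Ifit1 and Ifit3 lie between 156 and 57 bases before the start, that of Stat2 lies farther upstream, and that of Ifih1 lies after the start.

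All 8 genes were expressed in the sorted fraction, and each passed 10 CPM in both libraries. Of all genes listed, 31.3% reached 1 CPM in both libraries and 18.8% reached 10 CPM in both. Scaled by gene length before the common total (TPM), the median level of the 8 genes was 46.8 TPM, beside 13.0 TPM for the 15833 genes detected, that is, reaching 1 CPM in both libraries. Each of the 8 stood above that median. Together the 8 genes had 19205 counts in replicate 1 and 16462 in replicate 2, which is 523 and 492 CPM, and Irf1 alone held 35.7% and 40.0% of them.

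Irf1 and Irf7 are IRFs that activate interferon and interferon-stimulated genes. Irf1, which is also induced by interferon gamma and by NF-kB, had 6851 counts in replicate 1 and 6590 in replicate 2, or 138 and 145 TPM. It was the highest of the 8 at 142 ± 5.44 TPM (SD, n = 2), at the 94.7 percentile of detected genes. Both libraries placed it above each of the other 7. Irf7, the main amplifier of interferon alpha production, had 1837 and 1907 counts, or 64.1 and 73.1 TPM.

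Stat2 and Irf9, the ISGF3 subunits of the set, stood at different levels per length. Irf9, the DNA-binding subunit, had 3055 counts in replicate 1 and 2030 in replicate 2, or 76.7 and 56.0 TPM, with replicate 1 the higher. Stat2, its transactivating partner, had 1936 and 1856 counts, or 29.2 and 30.7 TPM, nearly level in both libraries. The Irf9 to Stat2 ratio of TPM was 2.63 in replicate 1 and 1.82 in replicate 2.

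Ifih1 encodes MDA5, a cytoplasmic sensor of long double-stranded RNA that signals through MAVS. It had 3120 counts in replicate 1 and 2170 in replicate 2, or 37.4 and 28.5 TPM, with replicate 1 the higher. Its long transcript (5635 bases in the files) put it next after Irf1 on the CPM scale, at 74.9 ± 14.3 CPM, while per length, at 33.0 ± 6.25 TPM, it fell below Irf7, Irf9 and Isg15.

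Isg15 encodes a ubiquitin-like protein that is joined to other proteins during the interferon response. It had 793 counts in replicate 1 and 516 in replicate 2, or 70.8 and 50.6 TPM. Its short transcript (756 bases) left only Ifit1 below it on the CPM scale, at 18.5 ± 4.39 CPM, while per length, at 60.7 ± 14.3 TPM, it stood above Ifih1, Stat2 and both Ifit genes. The IFIT proteins bind foreign RNA and limit its translation, with IFIT1 recognising 5′ ends that lack ribose methylation. Ifit3 had 909 and 965 counts, or 22.9 and 26.7 TPM, and Ifit1 had 704 and 428 counts, or 18.0 and 12.0 TPM. Ifit1 was the lowest of the 8, with its 2 libraries farther apart relative to their mean (a coefficient of variation of 28.3%) than those of any other of the 8.

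In the order of TPM, from Irf1 through Irf7, Irf9, Isg15, Ifih1, Stat2 and Ifit3 to Ifit1, the means spanned 9.42-fold. Of the 7 pairs of neighbours in that order, 3 had mean ± SD ranges that overlapped, namely Irf7 with Irf9, Irf9 with Isg15, and Ifih1 with Stat2. Irf7 and Irf9 also changed places between the libraries, as did Ifih1 and Stat2. An exact two-sided sign-flip test over 2 libraries has 0.5 as its smallest p, so the order is described without a test. The order also rests on the deposited gene lengths. For Irf1 and Ifit3 these were 3359 and 2678 bases, beside 2137 and 1745 in the longest coding transcript of GENCODE M21. For Irf7 and Irf9 they were 1934 and 2688 bases, beside 2237 and 2959. The SD ranges do not cover this choice, and the order under other lengths was not tested.

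**Figure D2:**
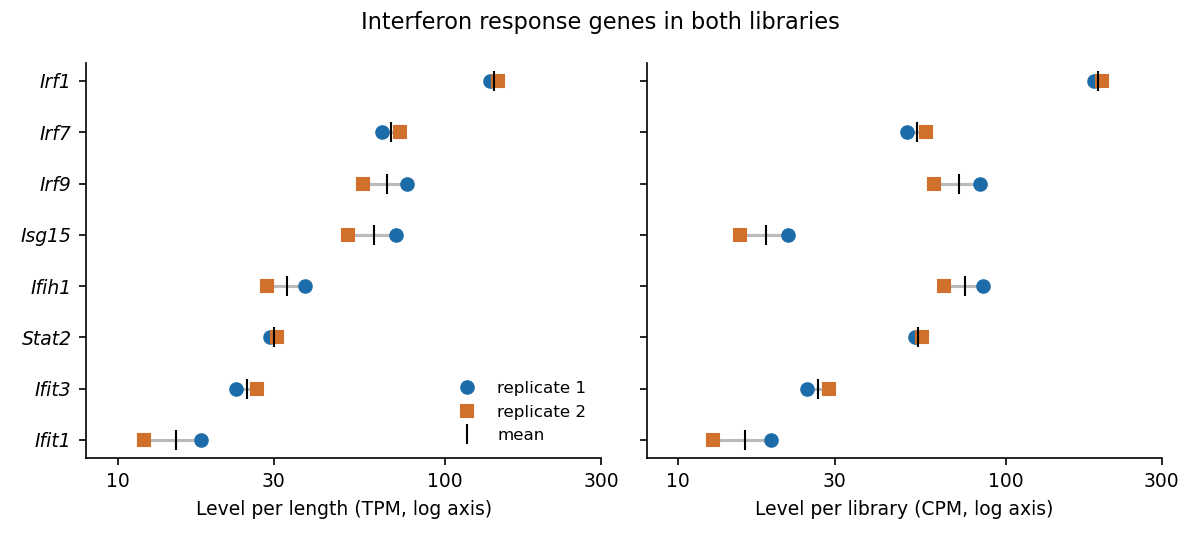
Levels of the 8 genes in replicate 1 (circles) and replicate 2 (squares) with their mean (bars), as TPM on the left and CPM on the right, both on log axes and ordered by mean TPM. Irf1 is highest on both scales, and Irf9, Isg15, Ifih1 and Ifit1 have replicate 1 to the right of replicate 2.

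Sequence shared with other genes bears on some of these counts. In GENCODE M21 transcripts, 31.7% of the stretches of 100 bases in Ifit3 also occurred in its neighbour and near copy Ifit3b, which had 155 and 176 counts of its own, so the split of reads between them is uncertain. Ifit1 shared 3.29% of its stretches with Ifit1bl2, Irf9 shared 0.839% with Rnf31, and Irf1 shared 0.0981% with the opposite-strand gene Gm17334. For Stat2, Irf7, Isg15 and Ifih1 no such stretch was shared. In the same annotation Irf1 overlapped the opposite-strand gene Gm17334 by 907 bases, Irf7 overlapped the opposite-strand gene Phrf1 by 45 bases, and Irf9 overlapped the same-strand gene Rnf31 by 123 bases. Whether strands were counted apart was not given in the sources used here.

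The libraries were next compared gene by gene. The exact two-sided binomial test set each count against the ratio of library totals, with Benjamini-Hochberg adjustment over all 23690 genes with 10 or more counts. It compares these 2 libraries and no condition, and its p-values cover counting error only. Xist RNA was abundant only in replicate 1 and Y-linked RNA only in replicate 2. A difference of sex therefore cannot be told apart from any other difference between the libraries. Of the 8 genes, 4 were lower and 3 higher in replicate 2, and 1 did not pass. In the same test 27.2% of all tested genes were lower and 16.9% higher in replicate 2. The test calls smaller differences in genes with more counts, so shares of calls in this and the later lists also depend on depth.

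The 4 lower genes were Ifit1, Isg15, Irf9 and Ifih1, a mix of effectors, a transcription factor and a sensor. Ifit1 had 19.2 CPM in the first library and 12.8 CPM in the second, a log2 ratio of -0.57 (95% Clopper-Pearson interval -0.76 to -0.41) with an exact binomial adjusted p of 1.96e-10. Isg15 stood at 21.6 and 15.4 CPM, a log2 ratio of -0.48 (-0.65 to -0.33) with an exact binomial adjusted p of 1.29e-08. Irf9 stood at 83.3 and 60.6 CPM, a log2 ratio of -0.45 (-0.54 to -0.38) with an exact binomial adjusted p of 1.20e-27. Ifih1 stood at 85.0 and 64.8 CPM, a log2 ratio of -0.39 (-0.47 to -0.31) with an exact binomial adjusted p of 2.13e-21. All 4 have intervals that exclude 0.

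The 3 higher genes moved less. Ifit3 had 24.8 CPM in the first library and 28.8 CPM in the second, a log2 ratio of 0.21 (0.09 to 0.35) with an exact binomial adjusted p of 0.0036, and it was -0.18 when the libraries were scaled to keratinocyte junction genes. Irf7 stood at 50.1 and 56.9 CPM, a log2 ratio of 0.18 (0.09 to 0.28) with an exact binomial adjusted p of 0.000351, and it was -0.21 on the junction scale. Irf1 stood at 187 and 197 CPM, a log2 ratio of 0.08 (0.03 to 0.12) with an exact binomial adjusted p of 0.00707, and it was -0.32 on the junction scale. The junction scale puts the median ratio of all tested genes at -0.40, beside -0.07 with all counts. These 3 genes stood above that median with all counts. Rescaling shifts every ratio by nearly the same amount, so their place above it carries over to the junction scale by construction. Stat2, at 52.8 and 55.4 CPM, had a log2 ratio of 0.07 (-0.02 to 0.16) that did not pass with all counts (exact binomial adjusted p of 0.221).

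The split of calls moved with the scaling. With TMM factors 4 of the 8 were higher and 4 lower in replicate 2, beside 22.7% and 21.4% of all tested genes, and on the junction scale none was higher and 8 were lower, beside 3.18% and 61.8%. The median log2 ratio of the 8 genes was -0.16 with all counts, beside -0.07 for all tested genes. None of the 8 differed by 2-fold, beside 2.49% of detected genes. edgeR estimated a shared coefficient of variation of 23.1% between the libraries. Against that spread its exact test called 0 of the 8 at an adjusted p under 0.05, and 0 had an unadjusted p under 0.05. The spread was estimated from the same 2 libraries, so a difference between them counts as spread. The absence of calls therefore does not show that the libraries are alike. The same edgeR test called 0.0844% of tested genes higher and 0.182% lower.

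**Figure D3:**
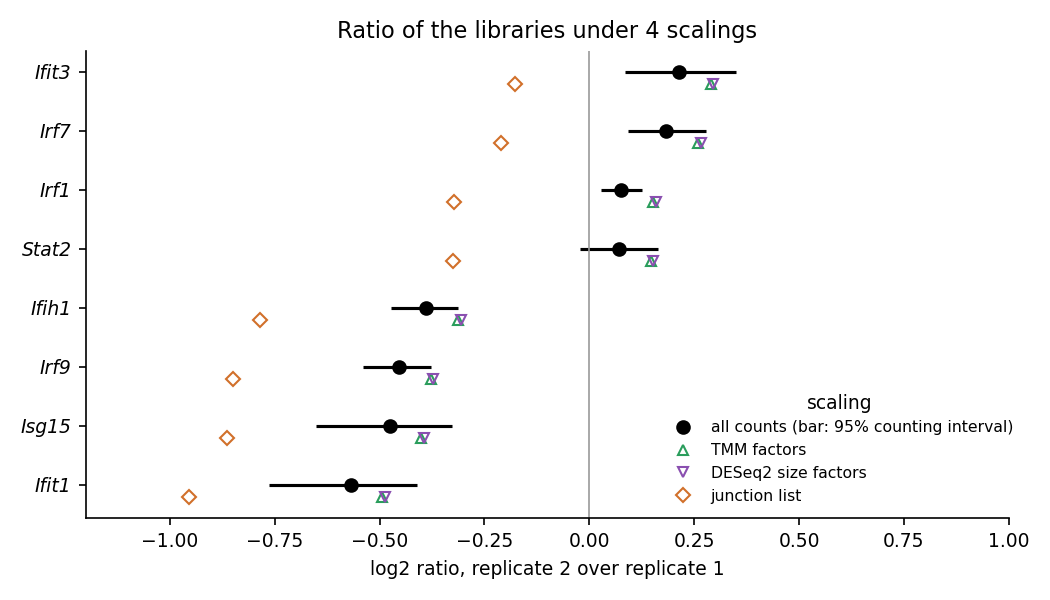
Log2 ratio of replicate 2 over replicate 1 for each of the 8 genes with all counts (filled circles, bars are 95% counting intervals) and with 3 other scalings (open symbols). Ifih1, Irf9, Isg15 and Ifit1 lie below 0 under all 4 scalings, while Ifit3, Irf7, Irf1 and Stat2 lie above 0 under 3 and below 0 on the junction scale.

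Ratios between pairs of the 8 genes do not depend on the scaling of the libraries. The pairs given were chosen after the values were seen, so they are descriptions with counting intervals. Between replicate 1 and replicate 2, Irf9 moved by -0.53 (-0.65 to -0.41) on the log2 scale relative to its ISGF3 partner Stat2, and Ifit1 moved by -0.80 (-1.02 to -0.59) relative to Ifit3. Ifit1 had 0.786 of the TPM of Ifit3 in replicate 1 and 0.450 of it in replicate 2. Ifih1 moved by -0.46 (-0.58 to -0.34) relative to Stat2, and Irf9 by -0.64 (-0.77 to -0.52) relative to Irf7. Irf9 and Stat2, Irf9 and Irf7, and the IFIT genes therefore changed their proportions between the libraries beyond counting error.

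**Figure D4:**
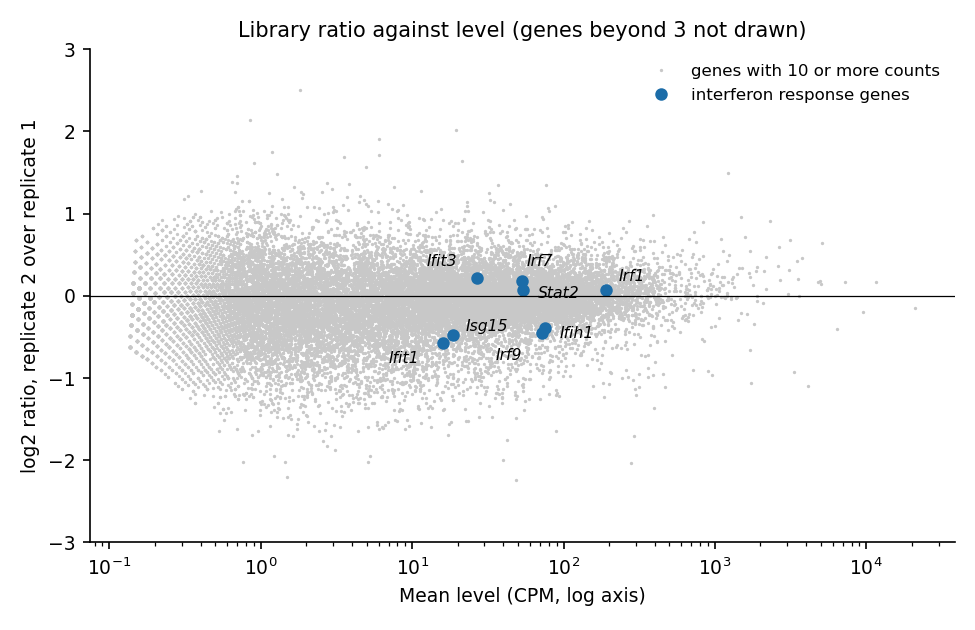
Log2 ratio of replicate 2 over replicate 1 (vertical) against mean CPM (horizontal, log axis) for genes with 10 or more counts (grey) and the 8 interferon response genes (blue); genes beyond 3 on the vertical axis are not drawn. The 8 genes lie within the cloud, with Ifit1 the lowest at -0.57 and Ifit3 the highest at 0.21.

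Markers of cell types moved between the same libraries by the exact binomial test. In that test 16.9% of all tested genes were higher and 27.2% lower in replicate 2. None of the markers in the lists that follow passed edgeR's exact test. All 10 fibroblast markers were lower in replicate 2 (median log2 ratio -0.89), and 5 of 7 endothelial markers were lower (summed levels of 77.6 and 51.4 CPM). Of the basal and spinous keratinocyte markers, 9 of 10 and 8 of 8 were higher, with medians of 0.41 and 0.67. Of 9 Langerhans and dendritic cell markers, 3 were lower and none higher, with summed levels of 136 and 101 CPM and a median of -0.24. Epcam alone gave 103 and 74.5 CPM of those sums, and 5 of the 9 markers reached 1 CPM in both libraries. The macrophage markers were mixed, with 5 of 11 higher, 3 lower and a median of 0.01. Markers of T and NK cells were scarce, with sums of 36.5 and 35.2 CPM that came mostly from Cd4 and no count for Trac, Ncr1 or Gzma. The part of these cell types in the ratios of the interferon response genes was not tested.

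The remaining pathway was described with gene lists, beginning with the ligands. Of 21 interferon genes, none reached 1 CPM in both libraries and 15 had no count, namely Ifng, Ifne, Ifnab and 12 interferon alpha genes. With 3 counts as the limit, a count of 0 allows a level of up to 0.0818 CPM in the first library and 0.0896 CPM in the second. That limit covers only reads that were assigned to a gene. Handling of multi-mapping reads was not given, and sequence shared among the interferon genes was not examined, so a count of 0 does not show that the RNA was absent. The highest were Ifnb1, the early type I interferon, with 32 and 35 counts, and the keratinocyte interferon Ifnk, with 37 and 28 counts. Ifnl2, a type III interferon, had 7 counts in each library, and Ifnz had 0 and 1.

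Receptor RNAs were all present, and each of the 6 passed 10 CPM in both libraries. The interferon gamma receptor chain Ifngr1 led at 225 ± 12.4 TPM, followed by Il10rb, a chain shared by the type III interferon receptor, at 80.9 ± 0.701 TPM and Ifngr2 at 64.1 ± 10.5 TPM. Ifnlr1, the specific chain of the type III receptor, was lowest at 10.4 ± 1.71 TPM. Between the libraries 3 of the 6 receptor genes were higher and 2 lower in replicate 2, beside 16.9% and 27.2% of all tested genes.

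Of the 10 JAK and STAT genes, 9 passed 10 CPM in both libraries. The kinase Jak1 led at 182 ± 13.4 TPM, followed by Stat3 at 167 ± 7.96 TPM and Stat6 at 98.0 ± 14.0 TPM, while Stat4 was lowest with 34 and 12 counts. Stat2, at 29.97 ± 1.08 TPM, lay below Stat5a and Stat5b, and 5 of the 10 were higher and 3 lower in replicate 2 (16.9% and 27.2% of all tested genes). Among the 9 IRFs all passed 10 CPM, and Irf2, a repressor of interferon targets, was lowest at 10.01 ± 1.11 TPM.

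Nucleic acid sensors and adaptors were detected as a group, with 19 of 19 found genes past 1 CPM and 18 past 10 CPM in each library. Ifi204, a DNA-sensing protein gene, led at 123 ± 33.8 TPM, followed by the adaptor Myd88 at 111 ± 5.41 TPM and the ligase gene Trim25 at 101 ± 1.58 TPM. The DNA sensor Cgas was lowest at 5.43 ± 0.199 TPM. Ifih1 lay near the list's median of 34.3 TPM. Of these genes 12 of 19 did not pass the library comparison, with 4 higher and 3 lower in replicate 2, against 16.9% and 27.2% of all tested genes.

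Other interferon-stimulated genes were widely detected. Of 62, 58 reached 1 CPM and 51 reached 10 CPM in both libraries, with a median of 34.2 TPM. The membrane proteins that block viral entry led, with Ifitm3 at 916 ± 125 TPM and Ifitm2 at 509 ± 27.6 TPM, followed by Ifi27l2a at 381 ± 18.0 TPM. The exonuclease gene Trex1 was lowest, with 1 and 2 counts. Of 61 tested, 32 were lower and 6 higher in replicate 2, beside the 27.2% and 16.9% of all tested genes. Called or not, 42 of the 61 had a ratio below 0, beside 58.2% of all tested genes. The median log2 ratio was -0.12, beside -0.07 for all tested genes. With edgeR's exact test 1 of the 61 passed, Ifi44, with 94 and 15 counts and an adjusted p of 0.036; it is named for that result.

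The enzymes that attach ISG15 to proteins were all present. Trim25, a ligase, stood highest at 101 TPM, the conjugating enzyme Ube2l6 had 39.2 ± 8.62 TPM and the activating enzyme Uba7 had 26.7 ± 1.49 TPM. The protease Usp18, which removes ISG15, had 26.2 ± 3.10 TPM, and the mouse ligase Herc6 was lowest at 6.61 ± 0.795 TPM. Of these 6 genes, Isg15 included, 4 were lower in replicate 2 and none higher, beside 27.2% and 16.9% of all tested genes, and all but Isg15 of the lower ones (Ube2l6, Usp18 and Herc6) are also counted among the other interferon-stimulated genes. Of 17 negative regulators of interferon signalling, 14 passed 10 CPM in both libraries. The feedback inhibitor Socs3 led at 856 ± 110 TPM, followed by Tnfaip3 at 331 ± 0.827 TPM and Irf2bp2 at 189 ± 19.0 TPM, and 7 of 16 tested were higher and 4 lower in replicate 2, where all tested genes gave 16.9% and 27.2%.

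**Figure D5:**
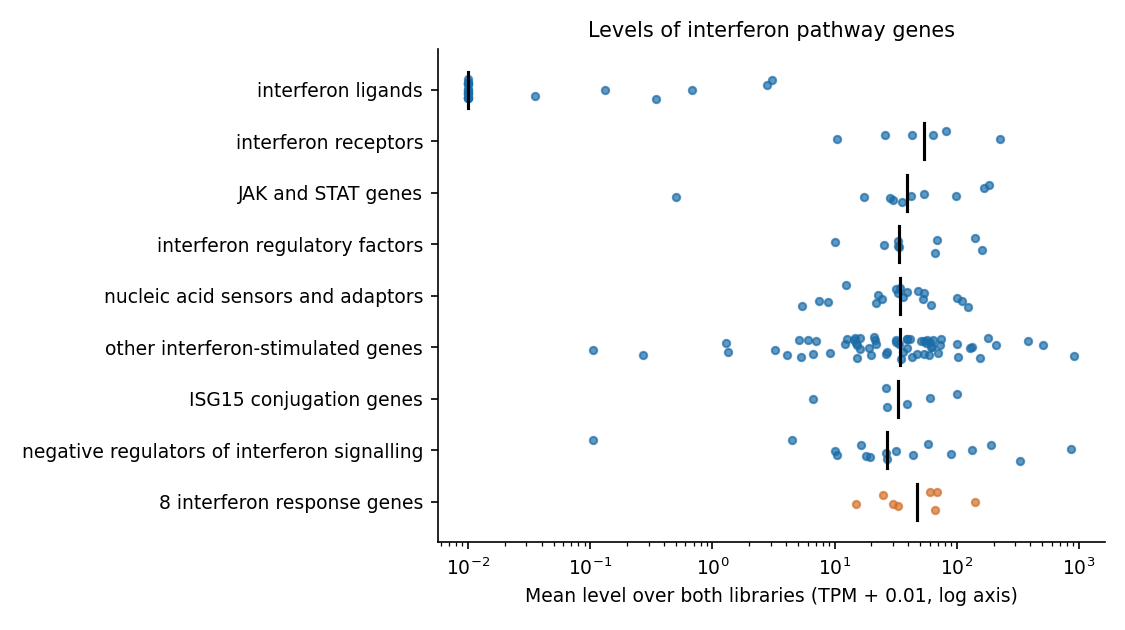
Mean TPM over both libraries of every gene in each interferon pathway list (points, log axis, with 0.01 added so that genes without counts can be drawn) and the list median (bars). The 15 interferon ligands without a count lie at the left edge and the highest, Ifnb1, at 3.09 TPM, while the medians of the other lists and of the 8 genes lie between 27.0 and 53.4 TPM.

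Enzymatic release and sorting came before the RNA was taken, and early-response genes were abundant in the same libraries. All 14 such genes passed 10 CPM in both libraries, at a median of 1289 TPM, with 10 higher and none lower in replicate 2, beside 16.9% and 27.2% of all tested genes. Irf1, which shares NF-kB and STAT inputs with some of them, was 142 TPM. Undisturbed skin was not analysed here, and the part of the isolation in the level of Irf1 or of the other 7 genes was not tested.

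The genes nearest in level to the extremes of the set were found by distance of log2(CPM + 0.5) over the 2 libraries, which mostly reflects level. Nearest to Irf1 were Wdfy2, Spty2d1 and the receptor gene Ifngr1, at distances of 0.01 to 0.02. Nearest to Ifit1, the lowest of the 8, were Nek6, Fen1 and Nrtn, at 0.02 to 0.04.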

How the data were processed

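Total RNA of sorted GFP+ cells was depleted of ribosomal RNA and sequenced as paired 150-base reads, per the labels' protocols. Each deposited file holds raw counts and a length for every gene. Per the submitters' processing notes, featureCounts made the counts, on build mm39. Aligner, annotation release, strand setting and handling of multi-mapping reads were not given in the sources used here. CPM used all counts, and TPM used the deposited length. Both libraries form 1 group, numbered as in the labels. Ratios used log2(CPM + 0.5), and the binomial test and intervals used the raw counts with a minimum of 10 counts in total. Intervals (95%) and the floor of 3 counts cover counting error only, since reads carry no molecular identifiers. edgeR's exact test used TMM factors and the common dispersion of a model with an intercept alone, estimated from the same 2 libraries; no quasi-likelihood fit has residual degrees of freedom between 2 single libraries. The tests were tried on simulated libraries, with counting noise alone for the binomial test and a coefficient of variation of 15% for edgeR. That is below the 23.1% estimated here, so the simulation does not give error rates for these libraries. Alternatives covered scaling, filter, pseudocount, test and each library alone.

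The 8 genes, the gene lists and the tests were chosen with earlier results of these data known. Named are the 8 genes, the 3 highest and the lowest gene by TPM of each pathway list, genes without a count (by number), and the 3 genes nearest in level to the highest and the lowest of the 8. Some genes that this rule names are not reported here. Any other gene was picked with its values in view. Of the listed names only Rigi was not found, and the gene is present as Ddx58. Start-site windows are from RefSeq on GRCm38.p6 and transcripts from GENCODE M21, neither of the build of the counts, so coordinates are given only for the printed sequences, on GRCm38.p6. Software was Python 3.11.15, numpy 2.4.6, pandas 2.3.3, scipy 1.17.1, R 4.3.3, edgeR 4.0.16 and DESeq2 1.42.0.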

Additional observations from a re-analysis of the deposited data

How the results depend on the processing

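The number of the 8 genes at 1 CPM in both libraries was 8 under every detection setting tried, and 8 in each library alone. Their median level was 53.8 CPM, 51.4 to 56.2 CPM with 1 library left out, and 60.6 CPM without the 20 most abundant genes in the total. The median log2 ratio of the 8 genes was -0.16 with all counts, -0.08 with TMM factors and with DESeq2 size factors, and -0.56 on the junction scale. The counts of genes higher and lower in replicate 2 were 3 and 4 by the exact binomial test, beside 16.9% and 27.2% of all tested genes. They were 0 and 8 on the junction scale, beside 3.18% and 61.8%. With edgeR's exact test, which weighs the spread between libraries, they were 0 and 0, beside 0.0844% and 0.182%. On the junction scale the ratios of Ifit3 (-0.18), Irf7 (-0.21), Irf1 (-0.32) and Stat2 (-0.33) turned negative. By construction that scale lowers every ratio, since the junction genes were higher in replicate 2. Stat2 passed the test with TMM factors (0.15) and DESeq2 size factors (0.15). Summing Ifit3 with its near copy Ifit3b, chosen after seeing the data, gave 0.23 with an exact binomial adjusted p of 0.000624. No paired analysis was possible because the series has 1 group. Each gene had 428 counts or more in each library, and the counting interval of Stat2 still includes 0 with all counts.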

Other observations

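Several genes outside the naming rule give further values. The X-linked endosomal RNA sensors Tlr7 and Tlr8 stood at 141 and 135 CPM, and at 116 and 116 CPM, in replicates 1 and 2, while Xist differed widely between these libraries. Among the IRFs of immune cells, Irf8, a factor of myeloid and dendritic lineages, passed the exact binomial test as higher in the second library, at 29.1 and 41.2 CPM, and Irf4 was lower, at 78.0 and 51.2 CPM. Siglech, a marker of plasmacytoid dendritic cells, which are strong producers of interferon alpha, had 196 and 362 counts. Of the 6 markers of those cells 1 was higher and 2 (Bst2 and Tcf4) lower in replicate 2, with a median log2 ratio of -0.03. All tested genes gave 16.9% higher and 27.2% lower. The antiviral GTPase genes Mx1 and Mx2 stood at 7.69 and 7.58 CPM for Mx1, which did not pass the exact binomial test, and 10.6 and 17.9 CPM for Mx2, which was higher in replicate 2 by that test. Among the chemokine genes induced by interferon, Cxcl10 stood at 30.5 and 22.2 CPM and Cxcl9 at 8.72 and 5.55 CPM, both lower in replicate 2 by that test. These genes were chosen after their values were seen, and edgeR's exact test called none of Tlr7, Tlr8, Irf8, Irf4, Siglech, Mx1, Mx2, Cxcl10 or Cxcl9.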
